A study of Mus musculus with 8 samples.

Results

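The genes described here are 10 interferon-induced antiviral effectors, namely Rsad2 (viperin), Cmpk2, Mx1, Mx2, Bst2 (tetherin), Isg20, Ifi44, Ifi27l2a, Xaf1 and Ifi35. They were chosen by function and matched by Ensembl identifier, and all 10 were found among the 54532 genes counted in each library. RNA-Seq of polyadenylated RNA was performed on mouse bone marrow-derived macrophages (BMDMs) to ask how loss of Trex1 and inhibition of STING change gene expression. The 8 libraries formed 4 groups of 2. WT BMDMs were given DMSO, as were Trex1-/- BMDMs (Trex1-KO). The other groups were Trex1-KO BMDMs given H151 at 500 nM (Trex1-KO+H151) or SN-011 (Trex1-KO+SN-011), both of which are small-molecule antagonists of STING. All cells were exposed for 12 h, came from mice of 6 to 8 weeks and had been cultured for 7 days with supernatant of L929 cells, a source of macrophage colony-stimulating factor. The dose of SN-011 is missing from the labels, and the methods of the study state the same concentration as for H151. The knockout was germline. Per the methods, Trex1-/- mice were bred from heterozygous parents, and WT mice were bought from an animal centre, so genotype and mouse colony cannot be told apart. No WT library received an antagonist.

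TREX1 is an exonuclease that degrades DNA in the cytosol. Without it, DNA that accumulates there is sensed by cGAS, whose product cGAMP activates STING on the endoplasmic reticulum, and STING leads to the making of type I interferon. Interferon binds its receptor (Ifnar1 and Ifnar2), the kinases JAK1 and TYK2 become active, and a complex called ISGF3, of which STAT2 and IRF9 are part, binds interferon-stimulated response elements (ISREs) at its target genes. The effectors that are made next act on separate steps of viral life cycles. Macrophages make many of them at rest as well as after stimulation.

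Total counts ran from 11845470 to 17284863 per library, and 14591 genes, the 10 effectors among them, passed the filter on low counts. Trex1 had 0 counts in all 8 libraries, WT included. Its 1147 exonic bases all lie within exons of Atrip, so the counts do not show the knockout and the genotypes rest on the labels. Levels below are CPM, counts divided by library size and scaled between libraries by TMM. The sum of 8 macrophage markers, most of it from Lyz2, lay between 30092 and 32363 CPM in every library. In Trex1-KO 3 of the 8 (Fcgr1, Cd68 and Adgre1) rose, and 1 was called lower with each antagonist. Fcgr1 averaged 233 CPM in WT, 513 in Trex1-KO, 363 with H151 and 366 with SN-011. The sum of 4 stromal markers was 2061 to 2251 CPM in WT and 844 to 1194 CPM in the Trex1-KO groups, the sum of 5 neutrophil markers 5.63 to 6.11 CPM in WT and 29.0 to 50.5 CPM in the Trex1-KO groups, and the sum of 4 B cell markers 38.3 to 40.9 CPM in WT and 9.74 to 13.1 CPM in the Trex1-KO groups. Markers of conventional dendritic cells, T cells and erythroid cells summed to at most 3.62 CPM per list in any library. The 4 dendritic cell markers summed to 1.63 to 2.65 CPM in WT and 2.85 to 3.62 CPM in the Trex1-KO groups, and went both ways. Xcr1 and Clec9a rose in Trex1-KO. Zbtb46 averaged 1.43 CPM in WT and 0.566 in Trex1-KO, and Flt3 0.277 and 0.0659, and neither was called. None of the 4 was called with an antagonist. Clec9a averaged 0.286 CPM in WT, 1.76 in Trex1-KO, 0.865 with H151 and 0.559 with SN-011. The T cell marker Cd2 rose in Trex1-KO as well, from 2 and 1 counts in WT to 6 and 15, and was not called with an antagonist. Bst2 also marks plasmacytoid dendritic cells. The 5 markers of these cells summed to 224 to 256 CPM, nearly all from Tcf4, and Siglech had at most 1 count in any library. The part of these cell types in the differences between groups was not tested, and in bulk samples more cells of a type cannot be told apart from more RNA per cell. The SN-011 libraries carry another treatment text than the other 6, so a batch limited to them cannot be told apart from SN-011.

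The genes lie on 6 chromosomes and include 2 pairs of neighbours (GRCm38). Rsad2 (chr12:26442746-26456452, minus strand) and Cmpk2 (chr12:26469204-26479837, plus strand) point away from each other, with 12.8 kb between their starts. Mx1 (chr16:97447035-97462907, minus strand) and Mx2 (chr16:97535308-97560900, plus strand) do likewise, with 72.4 kb between them. The others are Bst2 (chr8:71534255-71537456, minus strand), Isg20 (chr7:78913424-78920396, plus), Ifi44 (chr3:151730922-151749960, minus), Ifi27l2a (chr12:103442167-103443680, minus), Xaf1 (chr11:72301629-72313733, plus) and Ifi35 (chr11:101448407-101458698, plus). GENCODE annotates Mx2 as a polymorphic pseudogene and the other 9 genes as protein-coding. RefSeq promoter windows, 250 bases before to 50 bases after a start, were found for 7 of the 10 genes (GRCm38.p6). Mx1, Mx2 and Ifi27l2a had none. The 7 genes have 9 windows, as Isg20 has several. Matches below are counted by gene, while the shares are of windows, so the figures are not on the same scale. The windows of 4 genes are printed below, 5′ to 3′ on the strand of the gene, as examples with a full ISRE repeat (Rsad2, Bst2), with several copies of its core (Ifi44) and with none (Cmpk2). Capitals mark matches on either strand to the ISRE repeat GAAANNGAAA or to the interferon regulatory factor (IRF) core AANNGAAA, which is held within that repeat.
Rsad2 promoter (chr12:26456403-26456702, minus strand): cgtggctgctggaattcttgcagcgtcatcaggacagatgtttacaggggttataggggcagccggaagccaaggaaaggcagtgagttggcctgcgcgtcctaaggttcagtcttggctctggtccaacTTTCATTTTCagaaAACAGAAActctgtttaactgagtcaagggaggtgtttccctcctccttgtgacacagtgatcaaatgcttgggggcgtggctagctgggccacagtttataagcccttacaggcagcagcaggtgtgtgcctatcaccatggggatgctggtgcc
Cmpk2 promoter (chr12:26468965-26469264, plus strand): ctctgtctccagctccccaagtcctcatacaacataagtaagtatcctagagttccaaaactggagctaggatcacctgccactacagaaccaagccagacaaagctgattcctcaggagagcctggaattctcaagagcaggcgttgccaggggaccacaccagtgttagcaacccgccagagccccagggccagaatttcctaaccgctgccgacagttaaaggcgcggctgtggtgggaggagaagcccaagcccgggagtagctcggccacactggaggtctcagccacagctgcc
Bst2 promoter (chr8:71537423-71537722, minus strand): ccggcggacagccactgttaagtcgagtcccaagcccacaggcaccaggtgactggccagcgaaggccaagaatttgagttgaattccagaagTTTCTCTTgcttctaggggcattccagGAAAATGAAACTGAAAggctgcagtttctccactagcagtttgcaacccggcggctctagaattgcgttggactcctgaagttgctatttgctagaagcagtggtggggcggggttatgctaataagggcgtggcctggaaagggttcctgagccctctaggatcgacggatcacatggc
Ifi44 promoter (chr3:151749861-151750160, minus strand): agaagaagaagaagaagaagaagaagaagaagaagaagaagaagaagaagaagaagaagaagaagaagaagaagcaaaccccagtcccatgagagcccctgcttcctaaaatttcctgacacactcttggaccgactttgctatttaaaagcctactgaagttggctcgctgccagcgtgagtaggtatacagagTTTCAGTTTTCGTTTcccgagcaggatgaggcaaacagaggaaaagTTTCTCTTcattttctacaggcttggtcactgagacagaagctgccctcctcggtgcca
The ISRE repeat was matched once in Rsad2, 120 bases before the start, and at 2 overlapping places in Bst2, from 130 and 124 bases before it. It was found in 2 of the 7 genes, and in 3.43% of all 32817 RefSeq windows. The IRF core was matched in the windows of 6 genes, in Ifi44 at 3 places, the nearest 9 bases before the start, and in 23.9% of all windows. Cmpk2 held no match of either kind. The motif TTCNNNGAA, to which STAT dimers bind, was matched in Bst2, Isg20 and Ifi35 and in 8.29% of all windows. These are matches of letters, and binding was not measured.

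Compared per kb of exon, the levels of the genes spanned more than 2 orders of magnitude in every group. Ifi27l2a stood first at 251 ± 1.58 CPM per kb in WT (SD, n = 2) and 929 ± 104 CPM per kb in Trex1-KO, followed by Bst2 at 224 ± 4.19 and 413 ± 41.1 CPM per kb. Rsad2 and Mx1 came next in all 4 groups. Their libraries overlapped in WT and were separate in the other groups. Ifi44 held the last place in WT, at 1.93 ± 0.41 CPM per kb (SD, n = 2), and the sixth in Trex1-KO, at 29.3 ± 0.79 CPM per kb. Isg20 was last in each Trex1-KO group, with 6.34 ± 0.41 CPM per kb without antagonist. In WT, Isg20 and Mx2 could not be ordered, nor could Ifi35 and Cmpk2. In Trex1-KO each gene was separate from the next.

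Viperin and CMPK2 work on nucleotides. Viperin is a radical SAM enzyme that turns CTP into a chain terminator of viral RNA synthesis, and CMPK2 is a mitochondrial kinase that supplies nucleotide diphosphates. For Rsad2 the WT values were 101 and 68.1 CPM, and those of Trex1-KO 407 and 385 CPM, of Trex1-KO+H151 108 and 154 CPM, and of Trex1-KO+SN-011 139 and 166 CPM. Cmpk2 was measured at 47.6 and 33.4 CPM in WT, 159.7 and 153 in Trex1-KO, 45.8 and 60.5 with H151, and 62.6 and 63.5 with SN-011. Both genes were highest in the Trex1-KO libraries, and no other group reached them. With H151, the lower library of Cmpk2 lay within the WT values, whereas Rsad2 stayed just above WT.

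Mx proteins are dynamin-like GTPases that block viral nucleocapsids, MX1 in the nucleus and MX2 in the cytoplasm of mouse cells. Many laboratory strains carry Mx genes that make no working protein. Per the methods the mice were on a C57BL/6J background, and the counts measure transcripts only. Mx1 was measured at 70.1 and 47.9 CPM in WT, 275 and 248 in Trex1-KO, 69.2 and 91.0 with H151, and 88.8 and 98.4 with SN-011. Mx2 was measured at 11.0 and 8.74 CPM in WT, 46.5 and 43.7 in Trex1-KO, 16.8 and 16.3 with H151, and 18.8 and 18.4 with SN-011. Mx2 kept its groups apart in the order WT, H151, SN-011 and Trex1-KO, while for Mx1 the lower H151 library fell within WT.

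**Figure D1:**
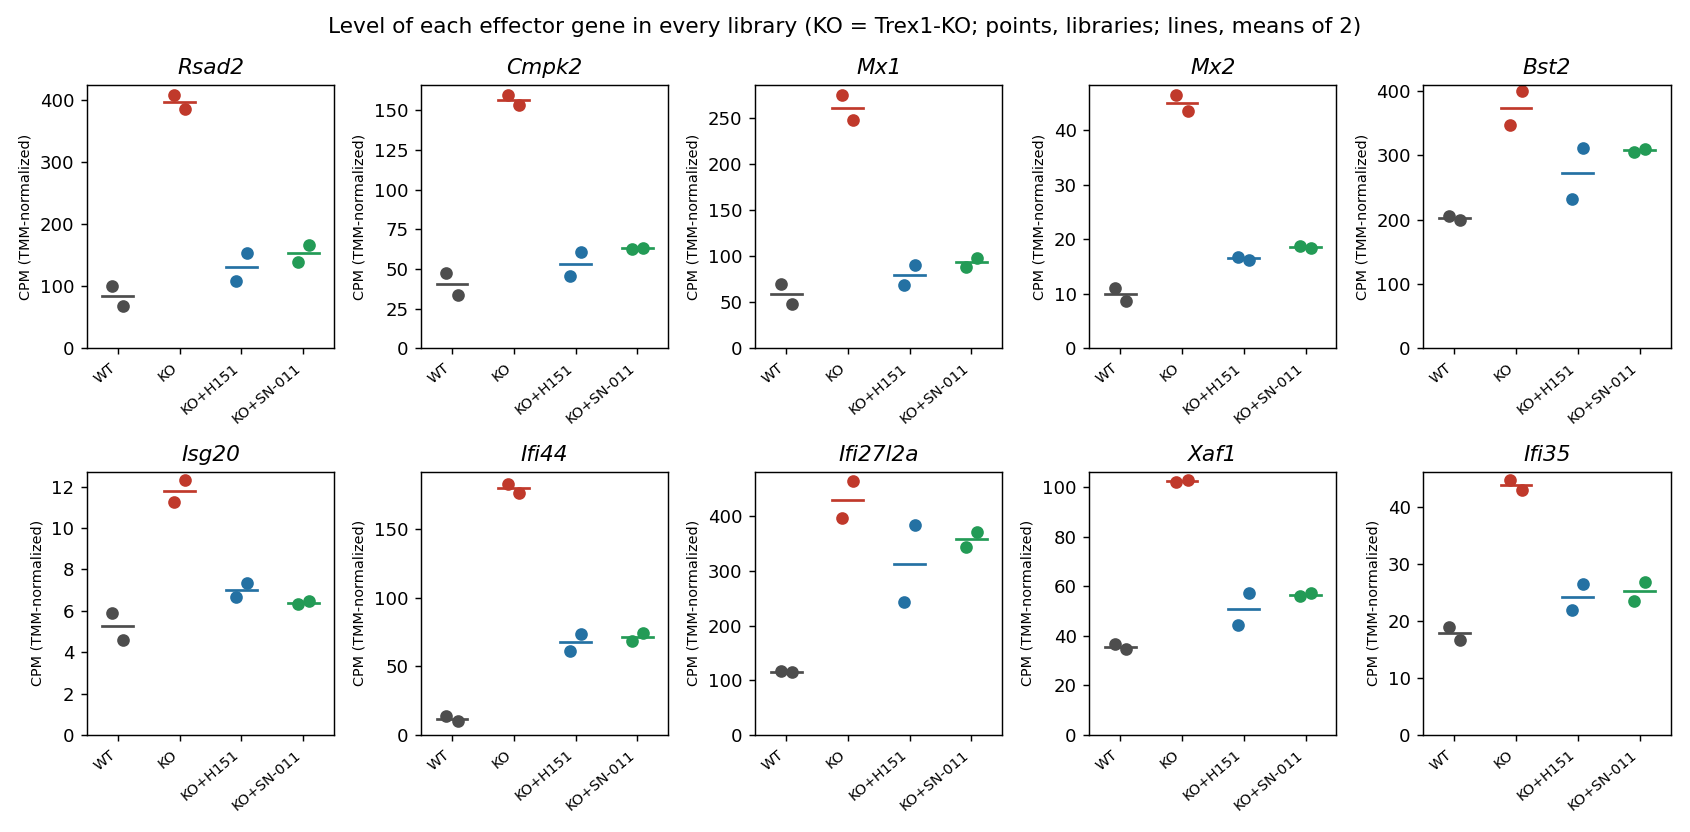
TMM-normalized CPM (y axis, from 0) of each of the 10 effector genes in every library of the 4 groups (x axis). Points are libraries and lines are means of 2. In all 10 genes both Trex1-KO libraries lie above both WT libraries and above all 4 libraries with an antagonist, and the H151 libraries of Ifi27l2a lie far apart, at 243 and 384 CPM.

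Tetherin is a membrane protein that holds budding virions on the cell surface. Bst2 was measured at 205 and 200.01 CPM in WT, 347 and 399 in Trex1-KO, 233 and 311 with H151, and 306 and 310.0 with SN-011. Its level with an antagonist was between WT and Trex1-KO in each library. ISG20 is an exonuclease of single-stranded RNA. Isg20 was the least counted of the 10 genes, with 68 to 187 counts per library, and was measured at 5.89 and 4.61 CPM in WT, 11.2 and 12.3 in Trex1-KO, 6.68 and 7.32 with H151, and 6.34 and 6.45 with SN-011. The antagonist libraries lay nearer to WT than to Trex1-KO.

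Ifi44 encodes a cytosolic GTP-binding-domain protein, and Ifi27l2a a small hydrophobic protein of the ISG12 family. Ifi44 was measured at 13.6 and 10.1 CPM in WT, 183 and 176 in Trex1-KO, 61.2 and 73.6 with H151, and 68.6 and 74.0 with SN-011. The lowest antagonist library of Ifi44 was still several-fold above WT. Ifi27l2a was measured at 117 and 116 CPM in WT, 396 and 464 in Trex1-KO, 243 and 384 with H151, and 344.5 and 371 with SN-011. All 4 antagonist libraries of Ifi27l2a lay above both WT libraries and below both Trex1-KO libraries.

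XAF1 binds the inhibitor of apoptosis XIAP, and IFI35 forms a complex with NMI. Xaf1 was measured at 36.7 and 34.6 CPM in WT, 102 and 103 in Trex1-KO, 44.3 and 57.3 with H151, and 56.1 and 57.2 with SN-011. Ifi35 was measured at 19.0 and 16.7 CPM in WT, 44.7 and 42.9 in Trex1-KO, 21.8 and 26.5 with H151, and 23.6 and 26.8 with SN-011. For both genes the antagonist libraries lay above WT and well under Trex1-KO. Exons of the antisense gene Gm11626 cover 16.8% of the exonic bases of Ifi35, so reads there may be missing from its counts. None of the other 9 effectors shares exonic bases with another annotated gene.

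Trex1-KO BMDMs were first compared with WT BMDMs. All 10 effectors rose, against 9.27% of all tested genes called higher at a false discovery rate (FDR) under 0.05 by the edgeR quasi-likelihood test. The largest change was that of Ifi44, which rose 15.2-fold (95% interval 12.7 to 18.2, edgeR adjusted p = 2.03e-10). The nucleotide enzymes and Mx genes moved by similar amounts. Rsad2 rose 4.70-fold (3.66 to 6.05, edgeR adjusted p = 5.46e-07), Cmpk2 3.87-fold (3.16 to 4.75), Mx1 4.44-fold (3.56 to 5.54) and Mx2 4.56-fold (3.82 to 5.45). Ifi27l2a rose 3.71-fold, Xaf1 2.87-fold, Ifi35 2.46-fold and Isg20 2.25-fold. Bst2, the second most abundant per kb, rose least, 1.84-fold (95% interval 1.57 to 2.16, edgeR adjusted p = 5.03e-05). Both Trex1-KO libraries exceeded both WT libraries for all 10 genes, as they did for 28.6% of all tested genes. The median log2 fold change of the effectors was 1.92, against -0.00196 for all tested genes. Each of the 10 calls held in every alternative fit run and without any one of the 4 libraries compared. With total counts in place of TMM, 946 of 2544 called genes were higher, against 1352 of 2390, and the 10 effectors remained called higher.

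H151 was then compared with vehicle in Trex1-KO BMDMs. Of the 10 effectors, 9 fell with H151, against 1.84% of all tested genes called lower. By estimate the Mx genes and the nucleotide enzymes fell most, and Ifi44 was too close to Mx2 to be ranked. The log2 fold change was -1.70 ± 0.14 (SE) for Mx1 (3.25-fold lower, edgeR adjusted p = 1.71e-05), -1.59 ± 0.16 for Rsad2, -1.55 ± 0.13 for Cmpk2 and -1.45 ± 0.11 for Mx2. Ifi44 changed by -1.41 ± 0.10 on the log2 scale (2.66-fold lower, edgeR adjusted p = 8.25e-06), Xaf1 by -1.004 ± 0.10 and Ifi35 by -0.85 ± 0.11. Isg20 changed by -0.75 ± 0.17 (edgeR adjusted p = 0.0337) and Bst2 by -0.46 ± 0.11 (edgeR adjusted p = 0.0394). Ifi27l2a was not called (-0.45 ± 0.15, edgeR adjusted p = 0.206). In all 10 genes both H151 libraries were lower than both Trex1-KO libraries, as in 17.9% of all tested genes. The median log2 fold change was -1.21 for the effectors and 0.00123 for all tested genes.

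The calls of the 3 genes with the smallest changes under H151 depended on the libraries in the fit. For Isg20, leaving out any one of the 4 libraries compared ended the call (edgeR adjusted p between 0.0718 and 0.231), as did fitting only the 2 groups (edgeR adjusted p = 0.0656), and DESeq2 gave an adjusted p of 0.0712. Bst2 was not called without Trex1-KO replicate 2 (edgeR adjusted p = 0.302) or without H151 replicate 1 (0.168), nor with only the 2 groups fitted (0.201). Ifi27l2a was called without H151 replicate 2, where its log2 fold change was -0.82. Over all 10 alternative settings this change ran from -0.82 to -0.16. A fit with a term for the replicate number also called Ifi27l2a.

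SN-011 was compared with the same Trex1-KO vehicle libraries, so both antagonist comparisons share their controls. Of the 10 effectors, 8 fell with SN-011, against 2.22% of all tested genes called lower. The log2 fold change was -1.48 ± 0.14 (SE) for Mx1 (2.80-fold lower, edgeR adjusted p = 5.05e-05), -1.38 ± 0.16 for Rsad2, -1.33 ± 0.10 for Ifi44, -1.31 ± 0.13 for Cmpk2 and -1.27 ± 0.11 for Mx2. Isg20 changed by -0.88 ± 0.17 on the log2 scale, Xaf1 by -0.85 ± 0.10 and Ifi35 by -0.80 ± 0.11. Bst2 (-0.28 ± 0.10, edgeR adjusted p = 0.277) and Ifi27l2a (-0.27 ± 0.15, edgeR adjusted p = 0.505) were not called. In all 10 genes both SN-011 libraries were lower than both Trex1-KO libraries, as in 21.6% of all tested genes. The median log2 fold change was -1.08 for the effectors and 0.00875 for all tested genes. The call of Isg20 (edgeR adjusted p = 0.0112) ended without Trex1-KO replicate 2 (0.0713), SN-011 replicate 1 (0.157) or SN-011 replicate 2 (0.0894).

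**Figure D2:**
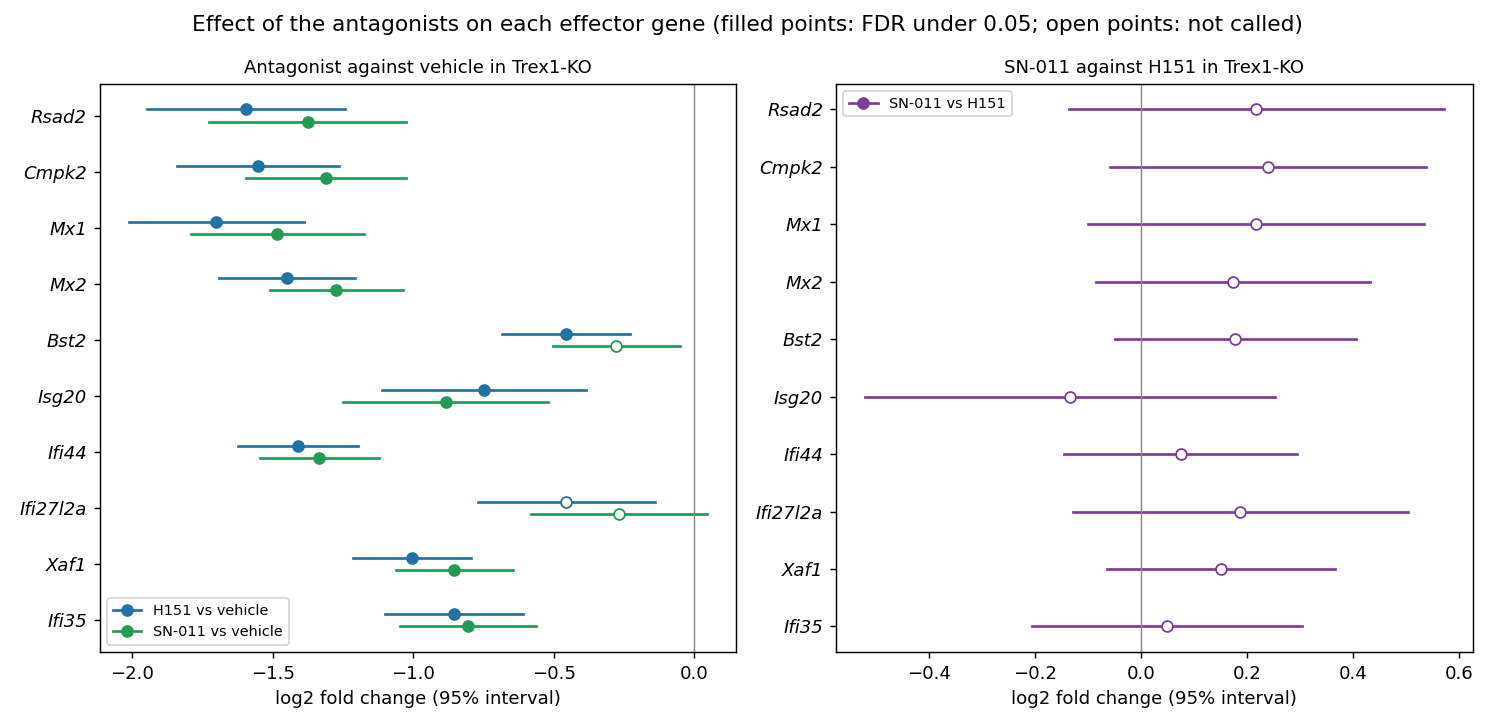
Log2 fold change with its 95% interval (x axis) for each effector gene (y axis). The left panel shows H151 and SN-011 against vehicle in Trex1-KO BMDMs, and the right panel SN-011 against H151. Filled points are called at an FDR under 0.05. In the left panel 9 genes with H151 and 8 with SN-011 are filled, and in the right panel every interval spans 0.

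The antagonists were compared with each other in Trex1-KO BMDMs at the stated common concentration and time, 1 pair of compounds over 10 genes, with p-values adjusted over all tested genes. No effector was called, 0 of 10 by the edgeR quasi-likelihood test and 0 by DESeq2. With edgeR, 0.158% of all tested genes were called in either direction. An unadjusted edgeR p under 0.05 was found for 0 effectors and for 1300 of all 14591 tested genes. With 10 genes, 0 is near that share. The log2 fold change of SN-011 over H151 ran from -0.13 (Isg20) to 0.24 (Cmpk2), with a median of 0.18. For Rsad2 the 95% interval of this log2 difference was -0.14 to 0.57, for Mx1 -0.10 to 0.54, for Bst2 -0.05 to 0.41 and for Ifi44 -0.14 to 0.29, so the absence of a call does not show that the antagonists act alike on these genes. Both SN-011 libraries were above both H151 libraries in 2 genes, Cmpk2 and Mx2, against 19.7% of all tested genes, and below them in 1, Isg20, against 20% of all tested genes. The H151 libraries differed from each other, with the second higher in every effector but Mx2. Without H151 replicate 2, 2 effectors were called higher with SN-011, Ifi27l2a (log2 fold change 0.56, edgeR adjusted p = 0.00390) and Bst2 (0.40, edgeR adjusted p = 0.0176). That fit called 190 of all 15179 tested genes higher (1.25%), against 0 with all libraries.

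The level left under each antagonist was set against WT. With H151, 7 of the 10 effectors were still called higher than in WT (6.79% of all tested genes), and with SN-011 9 were (6.18%). Ifi44 remained 5.72-fold (95% interval 4.75 to 6.89) above WT with H151 and 6.02-fold (5.00 to 7.25) with SN-011. Ifi27l2a remained 2.70-fold (2.15 to 3.40) above WT with H151 and 3.08-fold (2.45 to 3.87) with SN-011. For both genes the edgeR adjusted p was at most 3.10e-05. Among the others the fold over WT was lower. Mx2 stood at 1.67-fold with H151 and 1.89-fold with SN-011, Rsad2 at 1.56-fold and 1.81-fold, Xaf1 at 1.43-fold and 1.59-fold, and Bst2 at 1.34-fold and 1.52-fold. With H151, Cmpk2 (1.32-fold, edgeR adjusted p = 0.0924), Mx1 (1.37-fold, edgeR adjusted p = 0.0752) and Isg20 (1.34-fold, edgeR adjusted p = 0.177) were not called, and with SN-011 Isg20 was not (1.22-fold, edgeR adjusted p = 0.411). Both libraries exceeded both WT libraries in 8 effectors with H151 (26.7% of all tested genes) and in 10 with SN-011 (28.8%).

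**Figure D3:**
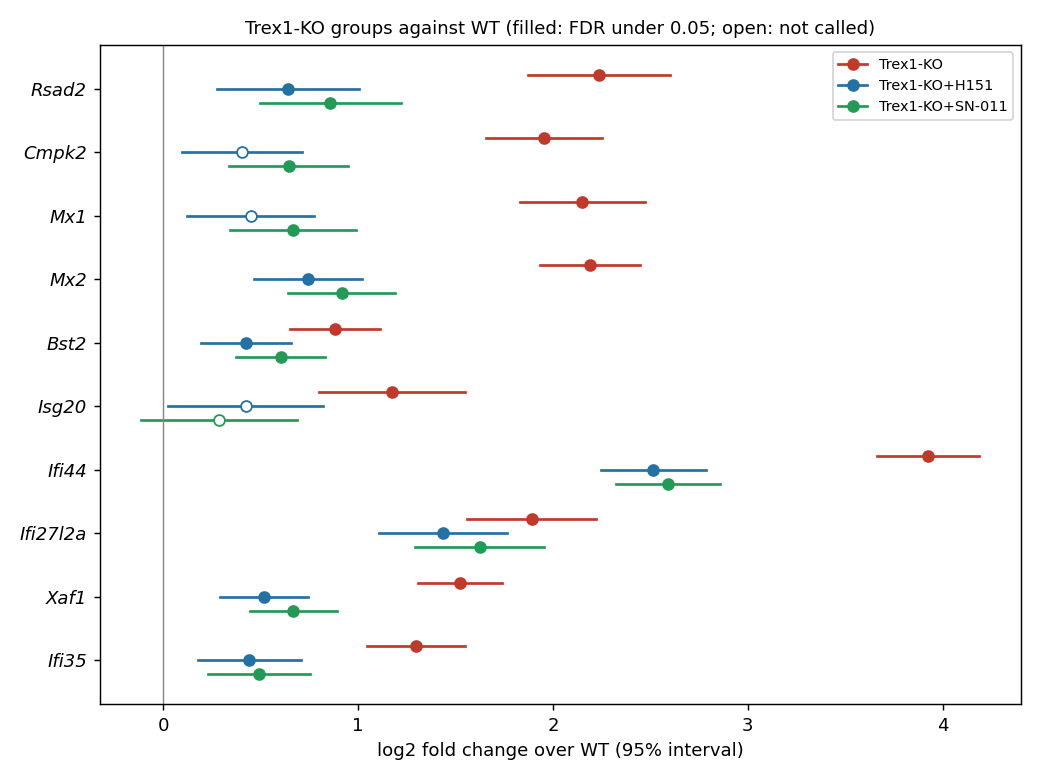
Log2 fold change over WT with its 95% interval (x axis) for each effector gene (y axis) in Trex1-KO, Trex1-KO+H151 and Trex1-KO+SN-011 BMDMs. Filled points are called at an FDR under 0.05. Ifi44 lies at 2.52 with H151 and 2.59 with SN-011 and Ifi27l2a at 1.44 and 1.62, while the other 8 genes lie between 0.29 and 0.92 with an antagonist.

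These counts of genes above WT rested in part on single libraries. The number with H151 was 3 without WT replicate 2, where 3.75% of all tested genes were called higher, and 4 without H151 replicate 2 (6.02% of all tested genes). The number with SN-011 was 5 without WT replicate 2 (3.6% of all tested genes) and 5 without SN-011 replicate 2 (3.15%). Ifi44, Ifi27l2a and Mx2 were called above WT with both antagonists in each of these fits. DESeq2 called 5 effectors above WT with H151, not Rsad2 (adjusted p = 0.178) or Ifi35 (adjusted p = 0.0572), and 8 with SN-011, not Mx1 (adjusted p = 0.0720), beside 5.31% and 4.84% of all tested genes. With total counts in place of TMM, 715 of 1713 called genes were higher with H151 than in WT (990 of 1726 with TMM). With SN-011 they were 703 of 1745 (902 of 1714). Over all comparisons, 59 results of single effectors stayed the same with total counts and 1 lost its call.

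Ratios of counts of a pair of effectors within a library do not depend on scaling between libraries. Mx1 over Rsad2 stayed between 0.591 and 0.702 in all 8 libraries, and Rsad2 over Cmpk2 between 2.04 and 2.62, with the WT libraries lowest. Ifi44 over Rsad2 was 0.135 and 0.148 in WT, 0.449 and 0.457 in Trex1-KO, 0.569 and 0.478 with H151, and 0.492 and 0.444 with SN-011. This ratio was low in WT. The SN-011 libraries overlapped those of Trex1-KO and of H151, while both H151 libraries lay above both of Trex1-KO. Ifi27l2a over Rsad2 was 1.16 and 1.70 in WT, 0.974 and 1.20 in Trex1-KO, 2.26 and 2.49 with H151, and 2.47 and 2.23 with SN-011. Here the antagonist libraries stood above all others, and those of WT and Trex1-KO overlapped. An exact permutation test of 2 libraries against 2 cannot give a two-sided p below 0.333, so these ratios are given as descriptions.

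**Figure D4:**
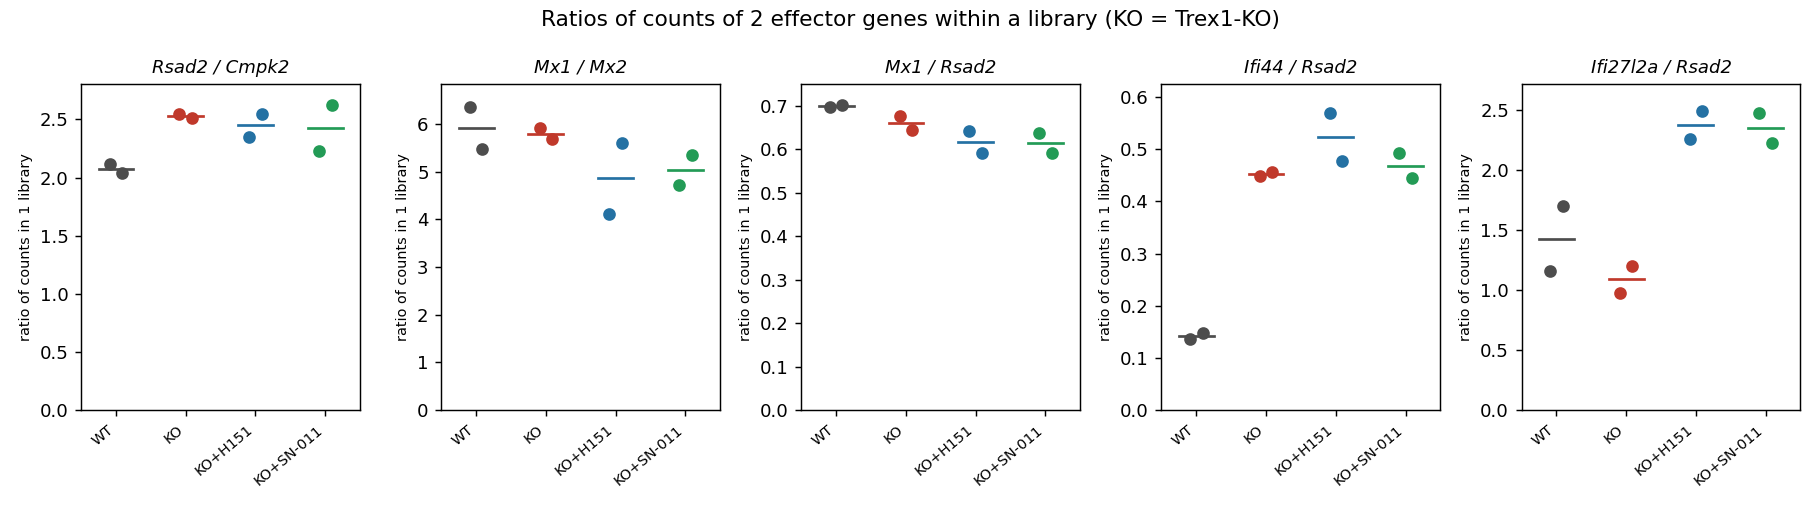
Ratio of the counts of a pair of effector genes within 1 library (y axis, from 0) in the 4 groups (x axis). Points are libraries and lines are means of 2. Ifi44 over Rsad2 is at most 0.148 in WT and at least 0.444 in all other libraries, and Ifi27l2a over Rsad2 is at least 2.23 with an antagonist and at most 1.70 without.

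The other genes of the pathway were read from fixed lists. The transcripts of 6 type I interferons were at or near 0. Ifnb1 had 0 to 2 counts and Ifnk 0 to 3 counts per library, and Ifna1, Ifna2, Ifna4 and Ifne had 0 in every library, at or under the floor of 3 counts. Of 12 genes of the receptor and of ISGF3 signalling, 8 rose in Trex1-KO, 5 fell with H151 and 5 fell with SN-011. Of all tested genes, 9.27%, 1.84% and 2.22% were called in these directions. Irf7, which amplifies interferon responses, was measured at 75.3 ± 11.8 CPM in WT, 462 ± 24.1 in Trex1-KO, 242 ± 44.7 with H151 and 274 ± 25.9 with SN-011 (SD, n = 2). Stat2 was measured at 113 ± 6.01, 336 ± 20.2, 162 ± 4.62 and 171 ± 3.45 CPM in the same order. Both genes were called in all 3 comparisons, as were Irf1 and Usp18, the last a negative regulator of the receptor. Of the receptor genes, Ifnar2 rose in Trex1-KO (log2 fold change 0.24, edgeR adjusted p = 0.00881) and Ifnar1 was not called (0.06, edgeR adjusted p = 0.663). The kinase genes Tyk2 (0.18, edgeR adjusted p = 0.0572) and Jak1 (-0.03, edgeR adjusted p = 0.841) were not called. None of these 4 was called with H151 or SN-011.

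Of 20 other interferon-induced antiviral effectors, 19 rose in Trex1-KO, 17 fell with H151 and 17 fell with SN-011. The shares of all tested genes called in these directions were 9.27%, 1.84% and 2.22%. Median log2 fold changes of the 20 genes were 1.39, -0.79 and -0.79, beside 1.92, -1.21 and -1.08 for the 10 genes above. The 4 with the highest average log2 CPM over the 8 libraries, Samhd1, Trim25, Ifitm3 and Oas2, are described here. Samhd1, which depletes deoxynucleotides, was measured at 694 ± 22.8 CPM in WT, 1066 ± 6.55 in Trex1-KO, 857 ± 18.5 with H151 and 829 ± 21.2 with SN-011 (SD, n = 2) and was called in all 3 comparisons. Oas2, which makes the activator of RNase L, was called in all 3 as well, rising from 151.3 ± 8.03 to 446 ± 30.7 CPM in Trex1-KO (SD, n = 2). Trim25, which modifies RIG-I, rose in Trex1-KO (log2 fold change 0.55, edgeR adjusted p = 2.36e-05) and was not called with H151 (-0.22, edgeR adjusted p = 0.0953) or SN-011 (-0.23, edgeR adjusted p = 0.0692). Ifitm3, which blocks viral fusion, rose (0.78, edgeR adjusted p = 0.000907) and was not called with H151 (-0.41, edgeR adjusted p = 0.210) or SN-011 (-0.29, edgeR adjusted p = 0.390).

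Relatives and binding partners of the effectors were the last list. Of 11 genes, 10 were among the genes counted and 8 passed the filter. Of these 8, 1 rose in Trex1-KO, beside 9.27% of all tested genes called higher. None of the 8 was called with either antagonist, beside 1.84% of all tested genes called lower with H151 and 2.22% with SN-011. The counts are near these shares. The gene that rose was Nmi, whose product binds IFI35, from 15.6 ± 1.31 to 26.5 ± 2.60 CPM (SD, n = 2, log2 fold change 0.77, edgeR adjusted p = 0.000367). Cmpk1, the cytosolic counterpart of Cmpk2, was measured at 138 ± 2.64 CPM in WT and 148 ± 3.02 in Trex1-KO (SD, n = 2). Dynamin 2, a relative of the Mx proteins encoded by Dnm2, was at 205 ± 1.54 and 209 ± 1.01 CPM, and Xiap, the partner of XAF1, at 133 ± 4.40 and 147 ± 7.70 CPM. Ifi27, of the same family as Ifi27l2a, was at 89.6 ± 7.75 and 77.0 ± 9.29 CPM. None of these 4 was called (edgeR adjusted p between 0.197 and 0.836). Ifi44l had at most 1 count and Ifi27l2b at most 2 counts in any library, so neither was tested, and reads shared by Ifi27l2a and such close copies would not have been assigned to one gene.

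**Figure D5:**
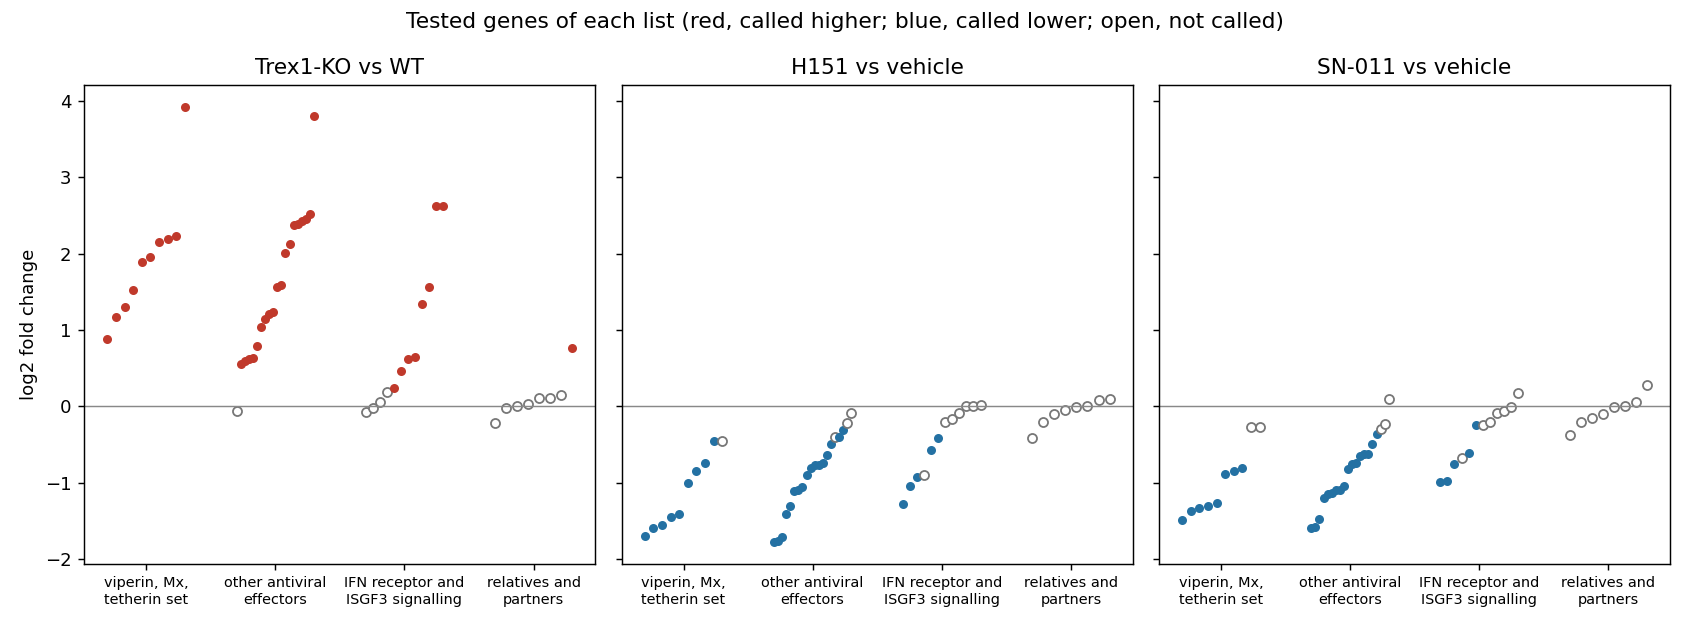
Log2 fold change (y axis) of every tested gene of 4 lists (x axis) in Trex1-KO against WT, and with H151 or SN-011 against vehicle in Trex1-KO. Each point is 1 gene, ordered by value within its list. All 10 genes of the first list and 19 of 20 other effectors are called higher in Trex1-KO, while 7 of 8 relatives and partners are not called. Of all tested genes, 9.27% are called higher in Trex1-KO.

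The genes whose group means were most like the mean profile of the 10 effectors were sought among 10650 other genes, as the root mean square difference of centred log2 CPM over the 4 groups. They were Gvin1 (0.03), Helz2 (0.04), Ifi47 (0.05), H2-T24 (0.05) and Slfn3 (0.09). Helz2, a helicase-like protein, was measured at 76.9 ± 9.62 CPM in WT, 290.4 ± 27.3 in Trex1-KO, 140.3 ± 6.26 with H151 and 144 ± 2.83 with SN-011 (SD, n = 2). Ifi47, an immunity-related GTPase, was measured at 44.3 ± 8.52, 163 ± 6.47, 70.8 ± 16.4 and 79.5 ± 1.94 CPM in the same order. Gvin1, H2-T24 and Slfn3 belong to families of close copies, so their counts are less certain.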

How the data were processed

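Sample titles gave the group and number of each library. The authors deposited raw counts per Ensembl gene for each library. They aligned paired-end reads with HISAT2, and the methods name featureCounts as the counter while the submitters' processing notes name HTSeq, with build mm10. Versions and the strand setting are not given in the sources used here. The replicate libraries are called independent experiments in the study, and p-values measure the spread between them. Symbols, positions and exonic lengths came from GENCODE mouse release M21 (GRCm38), which held 54495 of 54532 identifiers.

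Counts were tested in R 4.3.3 with edgeR 4.0.16 (filterByExpr at a count of 10 and a total of 15, TMM factors of 0.973 to 1.04, 1 quasi-likelihood fit over all 8 libraries with 1 mean per group, two-sided F-tests). P-values were adjusted over all 14591 tested genes by Benjamini-Hochberg, with a threshold of 0.05. Genes past it are said to be called, and "rose" and "fell" are used of called genes. Standard errors are the absolute log2 fold change over the root of F. The code was tested on simulated counts. Alternatives were DESeq2 1.42.0, total counts without TMM, a filter at 1 count, the edgeR exact test, the fit of only the 2 groups compared, a replicate block and leaving out each library. Motifs were searched on both strands of RefSeq promoter windows. One count was worth 0.0582 to 0.0849 CPM, and counts of read pairs carry counting error besides.

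The effectors and the lists were chosen with earlier results of these data known. The named genes are the effectors, Trex1, genes of the 4 lists, genes most like the effectors and cell markers. One signalling gene was left out of its list and is not reported here. Of the 20 other effectors the 4 with the highest average log2 CPM over all libraries got values, and the 5 genes most like the effectors were taken among those averaging a log2 CPM of 2 or more.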

Additional observations from a re-analysis of the deposited data

How the results depend on the processing

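Of 600 comparisons of a single effector with an alternative setting, 543 kept direction and side of the threshold, 35 lost the call, 15 gained it and 7 changed direction. All 7 that changed direction were SN-011 against H151, where no effector was called: leaving out H151 replicate 1 or 2, the log2 fold change was -0.013 and 0.50 for Rsad2, -0.013 and 0.40 for Bst2, -0.048 and 0.22 for Ifi44, -0.10 and 0.56 for Ifi27l2a, -0.015 and 0.35 for Xaf1 and -0.076 and 0.20 for Ifi35, and without SN-011 replicate 2 it was -0.038 for Ifi35. Leaving out 1 of the 4 libraries compared, the number of effectors called was 10 to 10 in Trex1-KO against WT, 7 to 9 with H151 and 7 to 8 with SN-011 against vehicle, 0 to 2 in SN-011 against H151, 3 to 9 with H151 against WT and 5 to 9 with SN-011 against WT. These fits keep 1 library in an arm, which is assumed to vary like the other groups.

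The titles number the libraries, and the labels do not say what a number stands for. Across genes, deviations of same-numbered libraries correlated at 0.19 for Trex1-KO and H151 and between -0.02 and 0.06 for the other pairs of groups. The main fit used no pairing. Whether Trex1-KO and H151 libraries of the same number share more than that number was not tested. With the replicate block, 10 effectors were called in Trex1-KO against WT and 7 with H151 against WT. Against vehicle, 10 were called with H151, where Ifi27l2a joined (edgeR adjusted p = 0.0229), and 8 with SN-011. The block raised the calls over all 14591 tested genes as well. They went from 2390 to 2611 in Trex1-KO against WT and from 1726 to 1939 with H151 against WT. Against vehicle they went from 325 to 412 with H151 and from 340 to 436 with SN-011.

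With all libraries kept, the filter at 1 count raised the calls over all genes from 325 to 525 with H151, from 340 to 679 with SN-011 and from 23 to 266 in SN-011 against H151. With it, all 10 effectors were called lower with each antagonist. In that fit of 27065 genes the prior degrees of freedom were infinite (9.12 with the filter used), so each gene took the spread of the trend and not its own: the quasi-dispersion of Rsad2 was 0.626, against 3.47. Its calls, 5 of the 15 gained, therefore leave out the spread between replicates of single genes and are not read as support. In SN-011 against H151 the edgeR exact test called 84 genes, the replicate block 44 and DESeq2 38. For these 3 settings the cause was not tested. With 2 libraries a group, the 95% intervals of SN-011 against H151 were between 0.43 and 0.77 wide on the log2 scale, which limits what could be seen. Isg20, with the fewest counts, had the widest.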
